A study of Homo sapiens with 8 samples.

Results

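BEAS-2B cells, a line of human bronchial epithelial cells immortalised with a viral oncogene hybrid, were given siRNA against LY96 and then stimulated with house dust mite (HDM) extract or with phosphate-buffered saline (PBS). The response described here is the difference between the 3 libraries of LY96 siRNA cells stimulated with HDM and the single library of LY96 siRNA cells given PBS. These 4 libraries are 4 of the 8 in the study, and the other 4 hold the same stimulations after a control siRNA, again with 1 PBS library and 3 HDM libraries. In all 8, the growth medium was replaced with basal medium (BEBM) 24 h before stimulation, and total RNA was taken 24 h after it. The values were taken to be FPKM, that is, fragment counts scaled to transcript length and sequencing depth, so levels can be compared between genes of different length. Of the 26485 genes listed, 12580 averaged 1 FPKM or more in the 4 libraries and were tested with limma, a linear model whose gene-wise variances are moderated across genes.

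Only 1 PBS library exists, so the spread in every test was taken from the HDM triplicate, and the lone PBS library is assumed to vary as the HDM libraries do. The labels do not say that the 3 HDM libraries came from separate cultures. The p-values therefore measure only how far these libraries lie apart, and that spread may be technical. LY96 itself was listed at 0 FPKM in all 8 libraries, control siRNA included, so these values hold no check of the knockdown, and a listed 0 can also be a failed estimate. The dose of HDM and the efficiency of the siRNA were not given in the sources used here. Summed FPKM was between 329777 and 340328 over the 8 libraries, and the number of reads behind each value is unknown. The ribosomal RNA genes RNA18S5 and RNA28S5 took 0.826% of summed FPKM in the LY96 siRNA PBS library and 1.03%, 1.03% and 1.31% in the HDM libraries, and the part of this difference in the results was not tested.

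The libraries had marker genes of bronchial epithelium, and the identity of the line itself was not tested. All 14 bronchial epithelial markers were tested, led by keratin KRT17 at 1298 FPKM in the PBS library, and their summed level was 2949 FPKM with PBS and 2629 to 2826 FPKM with HDM. Of 12 leukocyte markers, 6 were at 0 in the 4 libraries, among them PTPRC (CD45) and CD3E, and the summed level of the list was 3.75 FPKM with PBS and 5.13 to 5.62 FPKM with HDM, nearly all of it from the lysosomal protein CD68. The 7 endothelial markers summed to 0.428 FPKM with PBS and 0.235 to 0.313 FPKM with HDM, with PECAM1 at 0. The 10 fibroblast markers summed to 40.0 FPKM with PBS and 33.2 to 39.1 FPKM with HDM, mostly from PDGFRB, THY1 and COL1A1. Of 12 ciliated and secretory airway markers, 6 were at 0, including FOXJ1, SCGB1A1 and MUC5AC, and 2 were tested. The summed level of the list was 381 FPKM with PBS and 343 to 355 FPKM with HDM. Only 1 member averaged 5 FPKM or more, and nearly all of the sum came from it, so the sum does not show expression across the list.

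LY96 encodes MD-2, the small secreted protein that sits on the receptor TLR4 and holds its ligand, bacterial lipopolysaccharide. Signals from TLR4 and from many other receptors of airway epithelium free the NF-kB transcription factors from their IkB inhibitors, and NF-kB then switches on chemokines that draw neutrophils and monocytes, acute-phase proteins, and its own inhibitors. HDM extract carries lipopolysaccharide together with proteases, a lipid-binding allergen that resembles MD-2, and other mite products. A separate programme, the integrated stress response, raises translation of the transcription factor ATF4, which with C/EBP partners drives genes for amino acid synthesis and import, tRNA charging and the factor CHOP (DDIT3).

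The promoters of the CXC chemokine genes that rose most are shown first, because the same NF-kB motif stands in each of them. The motif searched was GGNATTTCC, on both strands of the 250 bases before the start of each gene in RefSeq's promoters (build GRCh38.p14). All 6 genes called higher in the CXC chemokine list held it, each once and as the same 9 letters. CXCL10, also called higher, is in the list of interferon-stimulated genes and was not counted with them. The 6 genes lie on chromosome 4, and the letters begin 77 to 91 bases before the start. The motif is in capitals in each window below, written 5′ to 3′ on the gene's own strand.
CXCL1, chr4:73869305-73869333, plus strand: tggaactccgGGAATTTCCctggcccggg
CXCL8, chr4:73740468-73740496, plus strand: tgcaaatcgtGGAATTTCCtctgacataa
CXCL2, chr4:74099254-74099282, minus strand: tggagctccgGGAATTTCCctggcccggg
CXCL6, chr4:73836579-73836607, plus strand: ctgagttcagGGAATTTCCccagcatccc
CXCL3, chr4:74038749-74038777, minus strand: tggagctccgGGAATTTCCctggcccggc
CXCL5, chr4:73998749-73998777, minus strand: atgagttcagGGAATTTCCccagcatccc
The windows of CXCL2, CXCL3, CXCL5 and CXCL6 fall inside the span that GENCODE 29 gives to the gene, which begins further upstream, and those of CXCL1 and CXCL8 lie before it. The flanks fall into families, with near-identical bases around the motif in CXCL1, CXCL2 and CXCL3, others in CXCL5 and CXCL6, and bases of its own in CXCL8. Among all 35116 RefSeq promoters 1.23% held the motif, and over the 9877 promoters of tested genes 1.17%. Called members of other lists were counted where they had a promoter entry. Of these, 3 of 6 NF-kB subunit and IkB genes and 4 of 11 NF-kB feedback and target genes held it. It was found in 0 of 1 CC chemokine and colony-stimulating genes, 0 of 2 acute-phase genes and 0 of 11 genes of the ATF4 list. A match is a run of letters, and binding was not measured here.

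The whole 250-base window of CXCL1, the chemokine with the largest log2 difference, runs from chr4:73869143 to 73869392 on the plus strand and ends directly before the annotated gene, with the motif again in capitals.
CXCL1: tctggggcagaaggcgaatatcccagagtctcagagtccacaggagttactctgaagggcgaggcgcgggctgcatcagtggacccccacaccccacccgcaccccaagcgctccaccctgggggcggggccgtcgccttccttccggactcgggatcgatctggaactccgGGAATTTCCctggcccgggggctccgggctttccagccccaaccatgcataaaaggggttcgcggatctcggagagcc

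With LY96 siRNA, HDM raised 288 genes and lowered 162 of the 12580 tested, at an adjusted p below 0.05. That is 3.58% of genes called either way, 2.29% higher and 1.29% lower. The rises were larger than the falls: the median log2 difference was 0.64 over genes called higher and -0.45 over genes called lower, on the log2(FPKM + 1) scale that is used for every log2 difference here. A difference of at least 1 on that scale was reached by 67 of the called rises and by 7 of the called falls. In every called gene the 3 HDM libraries lay all above or all below PBS, a pattern that 33.5% of all tested genes showed above and 27.6% below. The median over all tested genes was 0.01, and the median coefficient of variation within the HDM triplicate was 4.74%. The calls depend on the filter and on how variances are moderated: 37 of the 450 genes were still called with no filter on low values, and 156 without trend and robust weights in the moderation. Gene lists are described below by how many of their tested members limma called in each direction. Where a list is said to have 0 genes lower, limma also put 0 of its members below PBS at an unadjusted p below 0.05, except for 1 CXC chemokine, 1 interferon-stimulated gene and 3 S100 genes.

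**Figure D1:**
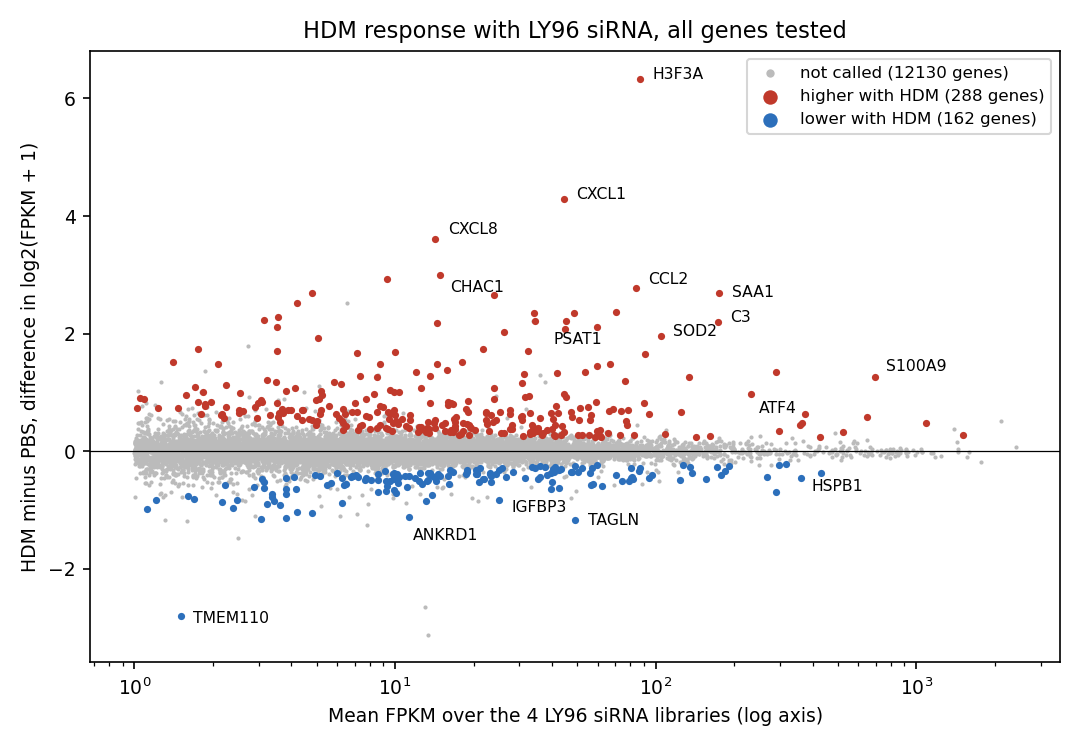
Difference between HDM and PBS with LY96 siRNA for each of the 12580 tested genes (y axis, log2 of FPKM + 1, mean of 3 HDM libraries minus 1 PBS library) against mean FPKM over the 4 libraries (x axis, log scale). Red points are the 288 genes called higher and blue points the 162 called lower; CXCL1, CXCL8, CCL2 and SAA1 stand above a log2 difference of 2, and H3F3A and TMEM110 share sequence with other genes, so their separate values are uncertain.

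Neutrophil-attracting CXC chemokines rose together, with 6 of 8 tested members higher and 0 lower, and a median log2 difference of 2.25 beside 0.01 over all genes. CXCL1 stood at 2.01 FPKM in the PBS library and at 48.6, 56.6 and 70.7 FPKM in the HDM libraries, a 29.2-fold rise of the mean (log2 difference 4.29 ± 0.24 SE, adjusted p = 0.0121). CXCL8, which encodes interleukin-8, went from 0.607 FPKM to 15.9, 20.01 and 20.5 FPKM (3.62 ± 0.14, adjusted p = 0.000218). CXCL2 went from 0.707 to 11.1, 10.9 and 14.4 FPKM (2.93 ± 0.16, adjusted p = 0.000721). In all 3 genes every HDM library was far above PBS. The lack of overlap itself was shared by every called gene. CXCL6, CXCL3 and CXCL5 were under 0.3 FPKM in the PBS library and reached means of 4.67, 4.14 and 4.61 FPKM, with log2 differences of 2.28, 2.22 and 2.11. The members that did not pass were CXCL16, a membrane-anchored chemokine for T cells (12.96 FPKM with PBS, log2 difference 0.29), and CXCL14 (7.005 FPKM, -0.29). Without HDM replicate 2, CXCL1 (adjusted p = 0.166) and CXCL6 no longer passed, which left 4 members of the list.

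Monocyte and dendritic cell attractants rose as well. CCL2, the main monocyte chemoattractant, was at 14.8 FPKM with PBS and at 101, 102 and 117 FPKM with HDM (2.77 ± 0.09, adjusted p = 5.1e-05). CCL20, the ligand of CCR6, went from 0.137 FPKM to 4.93, 5.83 and 5.96 FPKM (2.53 ± 0.12, adjusted p = 8.01e-05). The macrophage growth factor CSF1 went from 15.5 FPKM to a mean of 35.7 ± 1.26 FPKM (SD, n = 3; log2 difference 1.15). All 3 were higher in every HDM library, and the only other tested member of their list, CCL28, was not called (4.01 FPKM with PBS, mean 3.81 FPKM with HDM).

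In the list of the IL-6 family and its signalling, IL6 went from 0.669 FPKM to 3.68, 4.54 and 5.25 FPKM (1.71 ± 0.16, adjusted p = 0.00356). In that list 5 of 10 tested members were higher and 0 lower, and these also included the related cytokine LIF (0.65), the oncostatin M receptor OSMR (0.44), the feedback inhibitor SOCS3 (0.66) and STAT3 (0.27), the transcription factor that IL-6 activates. The call on STAT3 was lost without any 1 of the 3 HDM libraries. Both IL1A and IL1B rose by 0.84, to means of 2.33 and 3.60 FPKM, while IL18 fell from 27.9 to 19.5, 19.1 and 20.5 FPKM (-0.48 ± 0.06, adjusted p = 0.00954). The epithelial alarmins had little signal: TSLP was under 0.4 FPKM in each of the 4 libraries and IL33 was listed at 0 in all of them. In the list of alarmins and type 2 response genes, the near-identical serpins SERPINB3 and SERPINB4 rose (0.97 and 1.01), and SERPINB2, the plasminogen activator inhibitor PAI-2, fell by 0.65. SERPINB3 lost its call without HDM replicate 1 and SERPINB2 without HDM replicate 2.

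Acute-phase and soluble defence genes were among the largest rises, with 5 of 7 tested members higher, 0 lower and a median of 1.70. Serum amyloid SAA1 went from 33.4 FPKM to 203, 211 and 255 FPKM (2.70 ± 0.14, adjusted p = 0.00283), and its near-identical neighbour SAA2 from 3.98 to 24.9, 29.9 and 37.4 FPKM (2.65 ± 0.25, adjusted p = 0.0357, lost without HDM replicate 2). The long pentraxin PTX3, which binds microbes and complement C1q, was at 0.135 FPKM with PBS and at 5.73, 6.47 and 6.85 FPKM with HDM (2.69 ± 0.11, adjusted p = 5.67e-05). LCN2, a protein that withholds iron from bacteria, went from 3.09 FPKM to a mean of 12.3 ± 0.688 FPKM (1.70). The elastase inhibitor PI3 was already at 264 FPKM with PBS and reached 411 ± 37.5 FPKM (0.63, lost without HDM replicate 1), and SLPI, another such inhibitor, did not pass (0.23). After median-ratio scaling of the libraries, 3 members rather than 5 passed.

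Complement genes rose in 5 of 11 tested members, with 0 lower and a median of 0.83. The central component C3 went from 45.9 FPKM to 201, 205 and 239 FPKM (2.201 ± 0.10, adjusted p = 0.000384). Factor B, the protease of the alternative pathway, went from 16.3 FPKM to 83.6, 87.6 and 95.0 FPKM as CFB (2.37 ± 0.07, adjusted p = 1.92e-05). The initiating proteases C1R and C1S rose by 1.66 and 2.03, and the C1R-like protease C1RL by 0.83. The membrane regulator CD46, which protects cells from complement, was at 40.1 FPKM with PBS and 40.9 ± 0.590 FPKM with HDM and was not called.

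Of 14 tested S100 calcium-binding proteins 3 rose and 0 fell. The 3 are known as antimicrobial proteins of epithelium: S100A8 from 134 FPKM to 329, 361 and 334 FPKM, S100A9 from 338 FPKM to 831, 847 and 764 FPKM, and S100A7 from 64.6 FPKM to 154, 166 and 152 FPKM. Their log2 differences were 1.34, 1.26 and 1.27. S100A2 and S100A11, at 293 and 295 FPKM with PBS, were not called, with differences of 0.14 and -0.04. Without HDM replicate 3, and after median-ratio or quantile scaling, 1 member of the list was called lower.

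NF-kB genes and NF-kB targets were called higher in 8 of 14 and 12 of 17 tested members, with 0 lower in either list and medians of 0.74 and 0.83. Among the subunits, RELB went from 5.56 FPKM to 16.8, 17.9 and 17.4 FPKM (1.49 ± 0.06, adjusted p = 6.53e-05), NFKB2 rose by 1.08 and NFKB1 by 0.78. RELA, the subunit whose activity is set mostly by release from IkB, was at 28.8 FPKM with PBS and 31.1 ± 1.07 FPKM with HDM and was not called (0.11). The inhibitor NFKBIA (IkB alpha) went from 25.2 FPKM to 66.0, 71.4 and 75.2 FPKM (1.45 ± 0.08, adjusted p = 0.000141). The atypical IkB proteins NFKBIZ and BCL3 rose by 1.67 and 0.85, and the IkB kinase IKBKE by 1.14. These genes had all HDM libraries above PBS, as every gene called higher did.

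The largest rises in the list of feedback and target genes were those of the cytokine IL32 (11.1 FPKM to a mean of 61.4 ± 6.26 FPKM, log2 difference 2.36) and of TNFAIP2 (7.597 FPKM to 43.0 ± 3.28 FPKM, 2.35). Mitochondrial superoxide dismutase SOD2 was at 32.5 FPKM with PBS and at 126, 127 and 134 FPKM with HDM (1.95 ± 0.05, adjusted p = 1.05e-05). The ubiquitin-editing inhibitor A20, encoded by TNFAIP3, rose by 1.29, and the RNase ZC3H12A, which destroys cytokine transcripts, by 1.38. The adhesion molecule ICAM1, a receptor for leukocyte integrins, went from 19.1 FPKM to 47.3, 49.9 and 51.1 FPKM (1.33 ± 0.06, adjusted p = 7.3e-05).

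**Figure D2:**
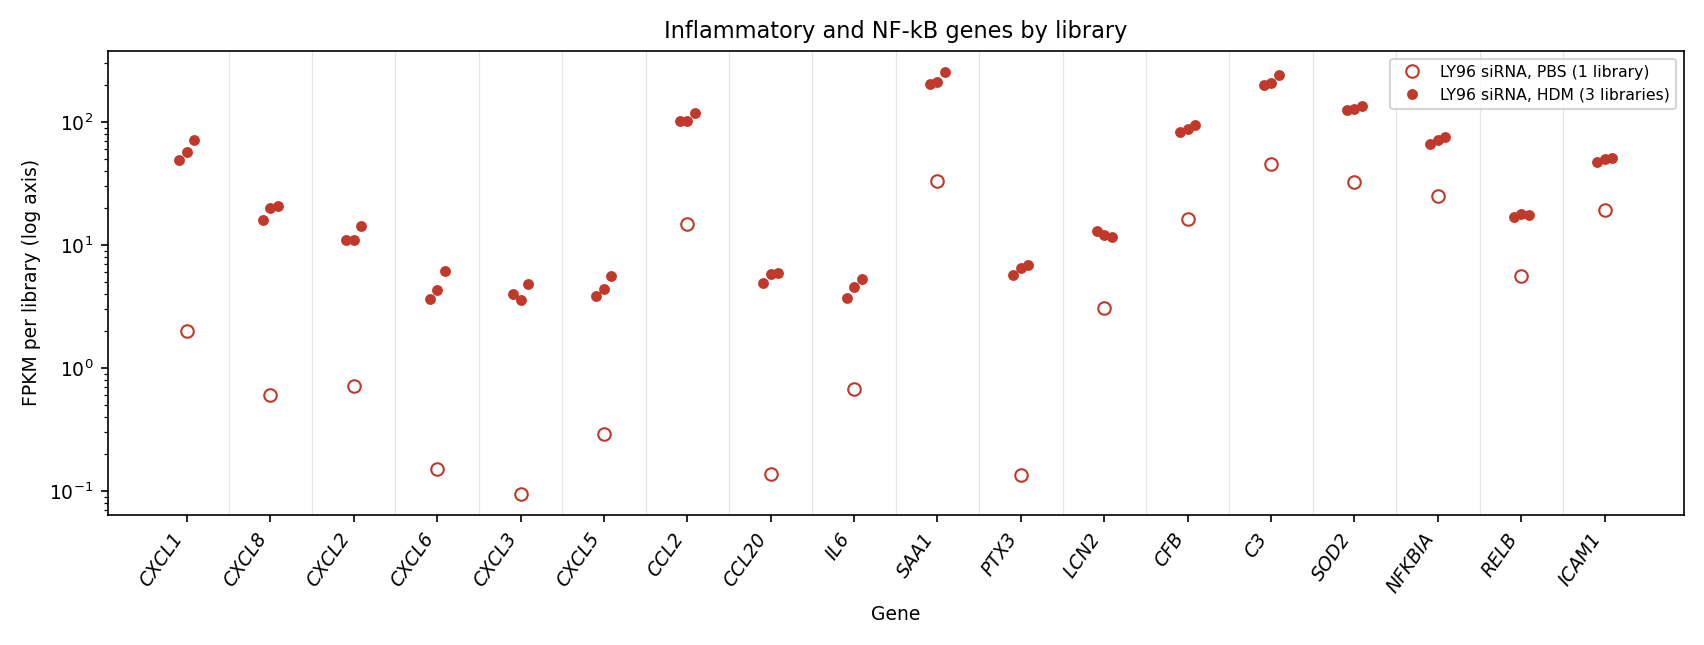
FPKM per library (y axis, log scale) of 18 chemokine, cytokine, acute-phase, complement and NF-kB genes with LY96 siRNA; open circles are the 1 PBS library and filled circles the 3 HDM libraries. For every gene shown the filled circles lie above the open one, from 2.59-fold for ICAM1 to 46.9-fold for PTX3, which was at 0.135 FPKM with PBS.

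Among receptors and adaptors upstream of NF-kB 1 gene passed. Of 15 tested TLR4 pathway components, TLR2 alone was called, from 0.653 FPKM to 1.64, 1.75 and 1.83 FPKM (0.73 ± 0.13, adjusted p = 0.0269), and it lost the call without HDM replicate 3. TLR4 was at 5.80 FPKM with PBS and at 4.65, 4.57 and 3.79 FPKM with HDM (-0.35 ± 0.11, adjusted p = 0.187), so all HDM libraries were below PBS, but not by enough to pass. The lipopolysaccharide co-receptor CD14 lay the other way, at 3.44 FPKM with PBS and 4.96, 4.95 and 4.21 FPKM with HDM (0.36 ± 0.11, adjusted p = 0.151). The adaptor MYD88 (15.8 FPKM with PBS, -0.10) and the interferon regulator IRF3 (37.0 FPKM, 0.10) were not called either. The median of the list was 0.03. For mite proteases, the protease-activated receptor F2RL1 was at 22.3 FPKM with PBS and 19.0, 16.3 and 16.3 FPKM with HDM, which did not pass (-0.36 ± 0.09, adjusted p = 0.124) but did without HDM replicate 1 (adjusted p = 0.00869).

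The ATF4 and CHOP stress list formed the other large block of rises: 12 of 16 tested members were higher and 0 lower, with a median of 0.78. ATF4 itself went from 135 FPKM to 258, 282 and 254 FPKM (0.97 ± 0.07, adjusted p = 0.000498). DDIT3, which encodes CHOP, went from 6.97 FPKM to 21.8, 24.2 and 19.6 FPKM (1.51 ± 0.11, adjusted p = 0.00155). The glutathione-degrading enzyme CHAC1, a target of both factors, went from 1.52 FPKM to 17.2, 22.3 and 18.3 FPKM (3.00 ± 0.14, adjusted p = 0.000383) and was the largest rise outside the inflammatory genes, copies left aside. The secreted glycoprotein STC2 rose from 7.199 FPKM to 25.8, 29.6 and 24.1 FPKM (1.74 ± 0.11, adjusted p = 0.000982), and the mTORC1 inhibitors DDIT4 and SESN2 rose by 1.48 and 1.01. DDIT4 lost its call without HDM replicate 3 and SESN2 without HDM replicate 1. The pseudokinase TRIB3, another target of ATF4, went from 16.6 FPKM to 39.7, 50.5 and 37.5 FPKM, and did not pass (1.30, adjusted p = 0.0621) unless HDM replicate 2 was left out.

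The composite site for ATF4 with a C/EBP factor was searched as TGATGNAA on both strands of the same 250-base windows. It was found in 3.14% of all RefSeq promoters and in 1.23% of those of tested genes. Among the called genes of the ATF4 list 2 of 11 held it, CHAC1 and ATF3, the second named only for this match. In CHAC1 it lies on the opposite strand and begins 209 bases before the start used by RefSeq, inside the span that GENCODE 29 gives to the gene.
CHAC1, chr15:40953252-40953279, plus strand: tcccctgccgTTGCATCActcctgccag
The capitals mark the match, read as its reverse complement.

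Enzymes that make serine and one-carbon units rose in 5 of 12 tested members, with 0 lower and a median of 0.55. PSAT1, the aminotransferase of serine synthesis, went from 11.3 FPKM to 53.6, 66.0 and 49.8 FPKM (2.22 ± 0.17, adjusted p = 0.0119). Mitochondrial MTHFD2 went from 38.4 FPKM to 82.9, 97.7 and 86.5 FPKM (1.19 ± 0.09, adjusted p = 0.00184). PHGDH, the first enzyme of serine synthesis, rose by 0.68, SHMT2 by 0.70 and MTHFD1L by 0.47. Thymidylate synthase TYMS, which uses one-carbon units for DNA, was not called (80.6 FPKM with PBS, -0.07). Without HDM replicate 1 the calls on PSAT1 (adjusted p = 0.162) and SHMT2 were lost, and 3 members passed.

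Amino acid synthesis and transport genes rose in 9 of 15 tested members, with 0 lower and a median of 0.53. Asparagine synthetase ASNS was at 8.39 FPKM with PBS and at 39.7, 52.6 and 36.5 FPKM with HDM (2.21 ± 0.24, adjusted p = 0.0460), a call lost without HDM replicate 1 and without HDM replicate 3. The cystine importer SLC7A11 went from 0.949 FPKM to 6.21, 7.24 and 5.93 FPKM (1.93 ± 0.11, adjusted p = 0.000239), and its partner chain SLC3A2 from 85.5 FPKM to 129, 154 and 130 FPKM (0.68 ± 0.11, adjusted p = 0.0365, lost without HDM replicate 1 or 3). The glycine transporter SLC6A9 rose by 0.88, the alanine aminotransferase GPT2 by 0.81 and the glutamine transporter SLC1A5 by 0.72. As in every called gene, HDM libraries and PBS did not overlap for any of these 6.

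The enzymes that load amino acids onto tRNA were divided into a cytosolic and a mitochondrial list, and the levels here do not tell where an enzyme works. Of the 20 cytosolic aminoacyl-tRNA synthetases 10 were higher and 0 lower, with a median of 0.25, and the largest differences were those of YARS (0.94), CARS (0.92), GARS (0.92), TARS (0.75), MARS (0.73) and AARS (0.68). YARS, as the first of these, went from 18.9 FPKM to 36.7, 40.0 and 35.1 FPKM, and GARS lost its call without HDM replicate 1. Of the 17 mitochondrial ones limma called 0 at an adjusted p below 0.05 and 0 at an unadjusted p below 0.05, the median was 0.05, and their differences ran from -0.11 to 0.12.

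Some genes of the neighbouring branches of the unfolded protein response passed. In the list of eIF2 alpha kinases, sensors and related factors 2 of 10 tested members were called higher. In the list of chaperones 3 of 18 were, beside 2.29% of all genes. XBP1, the transcription factor that IRE1 splices, rose from 26.6 FPKM to 46.3, 49.6 and 42.6 FPKM (0.77 ± 0.08, adjusted p = 0.00597), and the translation repressor EIF4EBP1 rose by 0.61. Neither of these 2 genes is itself a kinase or a stress sensor. The other 8 tested members of their list were not called, and the median of that list was 0.01. Among the chaperones of the endoplasmic reticulum 3 of 18 rose, namely HERPUD1 (0.70), PDIA4 (0.37) and HSPA5 (0.30), which encodes the master chaperone BiP, at 92.8 FPKM with PBS and 115, 110 and 118 FPKM with HDM. Calreticulin, CALR, at 295 FPKM with PBS, did not pass (0.23), and the median of the chaperones was 0.16. All HDM libraries lay above PBS for 14 of 18 chaperones, against 33.5% of all genes. At an unadjusted p below 0.05, limma put 11 chaperones higher and 0 lower. Without HDM replicate 1 the test called 5 chaperones, CALR among them, but no longer EIF4EBP1, and HSPA5 lost its call without HDM replicate 3.

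**Figure D3:**
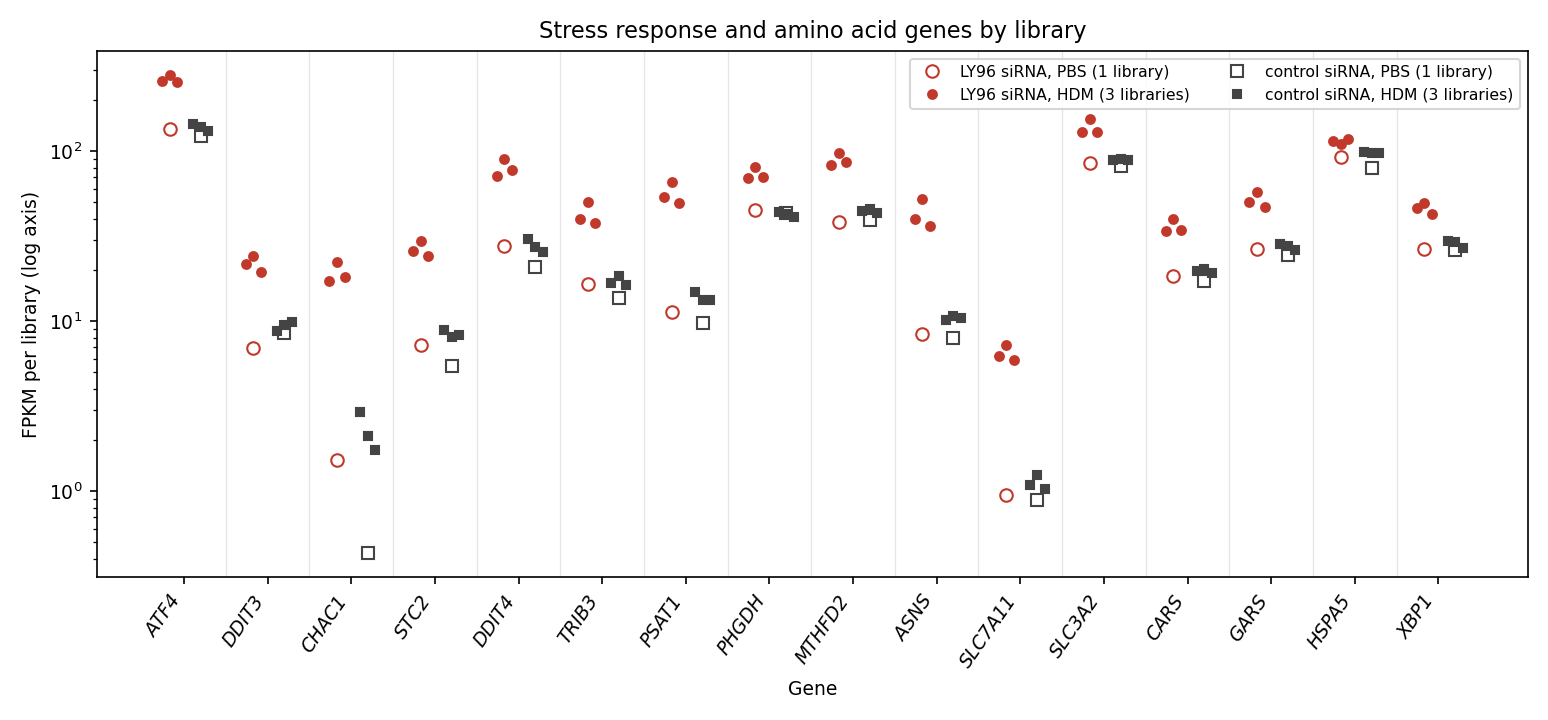
FPKM per library (y axis, log scale) of 16 stress-response and amino acid genes; circles are LY96 siRNA libraries and squares control siRNA libraries, open for the 1 PBS library and filled for the 3 HDM libraries of each. The filled circles of DDIT3 lie at 19.6 to 24.2 FPKM above an open circle at 6.97 FPKM, while the filled and open squares of DDIT3 lie close together.

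The 3 HDM libraries differed among themselves in several of these gene groups. HDM library 3 was the highest of the triplicate for 6 of 6 called CXC chemokines, 3 of 3 called CC chemokines and colony-stimulating factors, 5 of 5 called complement genes and 9 of 12 called NF-kB feedback and target genes. HDM library 2 was the highest for 11 of 12 called genes of the ATF4 list, 9 of 9 called amino acid genes and 10 of 10 called cytosolic synthetases. Of all genes called higher, library 1 was the highest in 10.4%, library 2 in 42.0% and library 3 in 47.6%, and over all tested genes the shares were 27.6%, 40.0% and 32.4%. In other lists, library 2 was the highest for 3 of 3 called S100 genes and 2 of 2 called genes of the IL-1 list, and library 3 for 4 of 8 called NF-kB subunit and IkB genes. Members of a list share their libraries, so these counts describe 3 libraries and carry no test.

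Antigen presentation genes rose widely and by small amounts. In that list 13 of 18 tested members were higher and 0 lower, with a median of 0.44. HLA-B was at 470 FPKM with PBS and at 652, 706 and 748 FPKM with HDM (0.57 ± 0.08, adjusted p = 0.0133, lost without HDM replicate 2). The peptide-loading protein tapasin, TAPBP, rose by 0.59, the immunoproteasome subunit PSMB10 by 0.55, HLA-F by 0.54, the invariant chain CD74 by 0.65 and the transcription factor IRF1 by 0.61. Of 42 tested interferon-stimulated genes 3 were higher and 0 lower, and the median was 0.01. Those 3 were the chemokine CXCL10 (0.696 FPKM to 2.03, 2.79 and 3.46 FPKM, log2 difference 1.13), XAF1 (0.43) and the membrane tether BST2 (0.27), and without HDM replicate 2 the count was 1, while BST2 lost its call without HDM replicate 3 too. IFI27 stood at 77.3 FPKM with PBS and 80.7 ± 1.77 FPKM with HDM and was not called.

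Among early-response and growth-factor genes, the transcription factors EGR1 and JUNB rose by 0.67 and 0.66, FOSL1 by 0.49 and IER2 by 0.37, as 4 of 17 tested immediate-early genes. That list went both ways, with a median of 0.03. At an unadjusted p below 0.05, limma put 6 of its members higher and 4 lower. After median-ratio or quantile scaling, 1 member was called lower. The EGF receptor ligand amphiregulin, AREG, went from 10.4 FPKM to 15.4, 15.6 and 15.3 FPKM (0.52 ± 0.06, adjusted p = 0.00528), the receptor inhibitor ERRFI1 rose by 0.44, and the receptor ERBB3 fell by 0.59. DUSP1, the phosphatase that switches off p38 and JNK kinases, fell from 21.6 FPKM to 13.8, 15.3 and 13.8 FPKM (-0.56 ± 0.08, adjusted p = 0.0109). Zinc handling was represented by SLC39A8, the zinc importer ZIP8, which went from 3.10 FPKM to 9.86, 9.58 and 12.3 FPKM (1.49 ± 0.14, adjusted p = 0.00496). Metallothionein MT2A rose by 0.45 and its relative MT1X fell by 0.24, a call lost without HDM replicate 3. The iron store FTH1 rose from 834 FPKM to 1115, 1185 and 1206 FPKM (0.49 ± 0.05, adjusted p = 0.00479).

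The genes that HDM lowered were smaller in number and in size. The largest group was that of contractile genes and targets of the transcription factors SRF and YAP, in which 7 of 23 tested members were lower and 0 higher (1 at an unadjusted p below 0.05), with a median of -0.17. TAGLN, the actin-binding protein transgelin, went from 84.9 FPKM to 41.8, 38.4 and 31.5 FPKM (-1.18 ± 0.17, adjusted p = 0.0497). ANKRD1, a YAP target, went from 19.7 FPKM to 9.74, 8.44 and 7.47 FPKM (-1.12 ± 0.13, adjusted p = 0.0111). The myosin light chain MYL9 fell by 0.59, the matricellular YAP targets CTGF and CYR61 by 0.51 and 0.41, and tropomyosin TPM1 by 0.46. For these 6, as for every called gene, HDM libraries and PBS did not overlap. Without HDM replicate 2 the calls on TAGLN (adjusted p = 0.267), ANKRD1 and CTGF were lost, and 4 members passed.

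Several secreted regulators fell with them. IGFBP3, the main carrier of insulin-like growth factors, went from 37.6 FPKM to 20.6, 19.4 and 22.5 FPKM (-0.82 ± 0.08, adjusted p = 0.00376), and FSTL3, which binds activin, fell by 0.68. The Wnt inhibitors APCDD1 and DKK1 fell by 1.13 and 0.64, DKK1 losing its call without HDM replicate 2. Of 26 tested matrix genes 3 fell, the TGF-beta-induced protein TGFBI (54.7 FPKM to 35.4, 34.6 and 33.7 FPKM, -0.65), thrombospondin THBS1 (-0.51) and collagen VII, COL7A1 (-0.42), and 2 rose, the cross-linking enzymes LOX (0.35) and LOXL2 (0.26). Without HDM replicate 2 COL7A1 and LOXL2 did not pass, nor did LOXL2 without HDM replicate 3. Among inhibitors of matrix proteases, TIMP3 at -0.77 and TIMP2 at -0.34 were called lower, and TIMP1 at 0.18 was not called.

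Other named falls were spread over functions. The glucose transporter SLC2A3 (GLUT3) went from 6.14 FPKM to 2.97, 2.77 and 2.60 FPKM (-0.92 ± 0.10, adjusted p = 0.00430), whereas hexokinase HK2 rose by 0.67. The monooxygenase CYP4B1 fell by 0.88 and the chloride channel protein CLIC3 by 0.85, and both calls were lost without HDM replicate 2. The membrane protein EMP1 fell by 0.63, the growth factor receptor PDGFRB by 0.62 and the NKG2D ligand RAET1G by 0.69, the last lost without HDM replicate 2 or 3. Among 18 tested keratins KRT80 (-0.71) and KRT7 (-0.41) were lower. The median of the keratins was -0.27 and that of 24 junction genes -0.23. In the junction list 19 of 24 members had all HDM libraries below PBS, against 27.6% of all genes, but the tight-junction protein CLDN7 alone was called (-0.39). Desmosomal DSP, as an example, was at 122 FPKM with PBS and at 104, 96.0 and 87.3 FPKM with HDM and did not pass (-0.34, adjusted p = 0.139). The counts of called falls moved with the fit: leaving out HDM replicate 1, 2 or 3 gave 5, 3 or 4 junction genes, with DSP among them without HDM replicate 1. Without HDM replicate 2, or after median-ratio scaling, 4 keratins were called, and KRT7 was lost without HDM replicate 2.

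Cytosolic heat shock proteins fell in 6 of 14 tested members with 0 higher (0 also at an unadjusted p below 0.05) and a median of -0.19. The small heat shock protein HSPB1 went from 456 FPKM to 336, 338 and 318 FPKM (-0.46 ± 0.05, adjusted p = 0.00522). The constitutive chaperone HSPA8 went from 517 FPKM to 406, 381 and 419 FPKM (-0.36 ± 0.06, adjusted p = 0.0225). The inducible chaperones HSPA1A and HSPA1B have almost the same sequence, and their summed level was 205 FPKM with PBS and 149, 142 and 154 FPKM with HDM, a ratio of 0.723. DNAJB1 and HSP90AA1 fell by 0.28 and 0.22, HSP90AA1 losing its call without HDM replicate 2 or 3 and DNAJB1 without HDM replicate 3. Like every gene called lower, the 6 had all HDM libraries below PBS, and without HDM replicate 3 the count was 4. Without trend and robust weights in the moderation, or without the filter on low values, 0 of them were called.

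**Figure D4:**
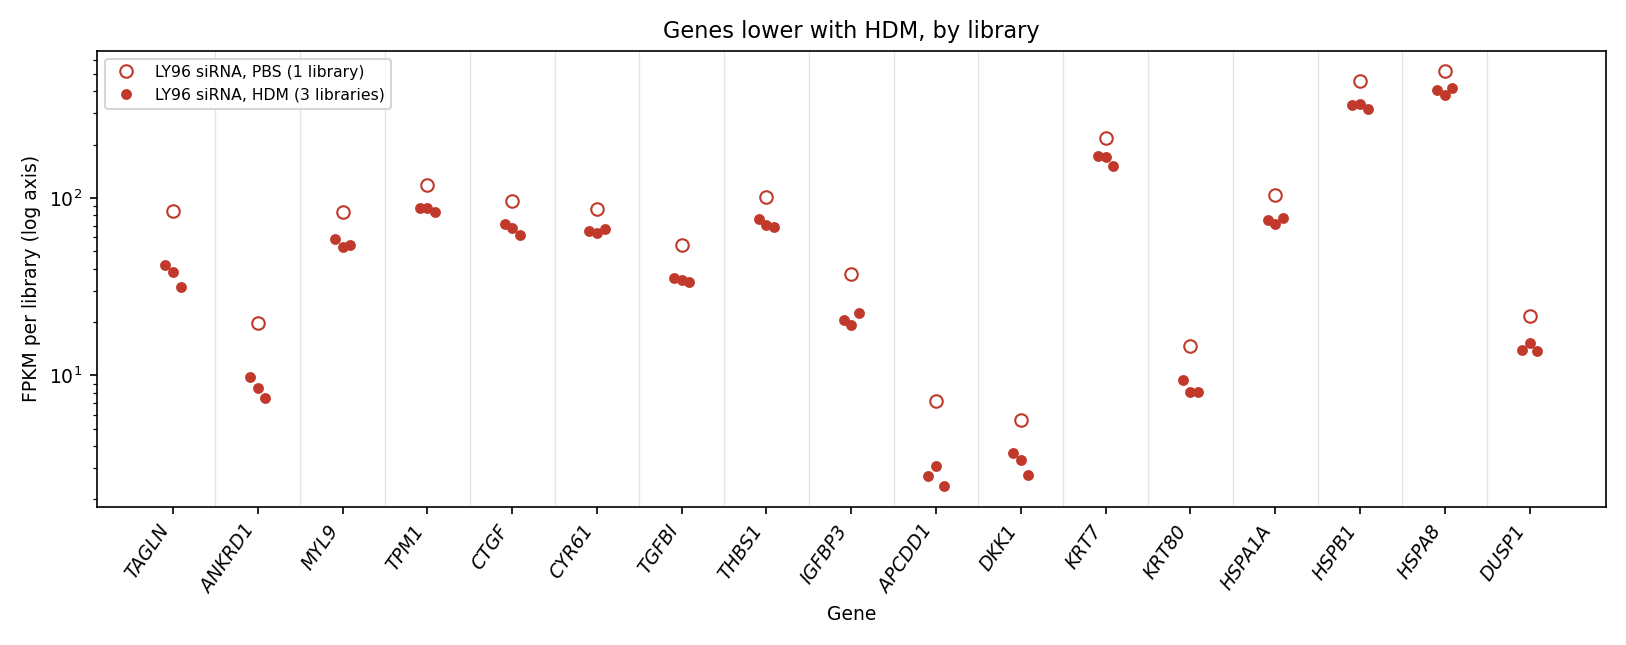
FPKM per library (y axis, log scale) of 17 genes that were lower with HDM after LY96 siRNA; open circles are the 1 PBS library and filled circles the 3 HDM libraries. For each gene the filled circles lie below the open one, most clearly for TAGLN, ANKRD1 and APCDD1 and by a smaller step for the heat shock proteins.

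In other housekeeping and metabolic lists few or no genes passed. Limma called none of 79 cytosolic ribosomal proteins (median -0.01), 67 nuclear-encoded respiratory chain subunits (0.06), 26 sterol and fatty acid synthesis genes (0.07), 24 cornified envelope genes (-0.18) and 7 prostaglandin genes (0.04). At an unadjusted p below 0.05 they held 2, 7, 6, 4 and 3 genes, beside 1932 of all 12580 tested. Over all tested genes 3.58% were called, so 0 calls in the shorter lists say little. Without HDM replicate 1 the test called 3 respiratory chain genes, and without HDM replicate 3 it called 3 cornified envelope genes lower and 1 higher. Of 31 cell cycle genes cyclin D1, CCND1, alone was lower (-0.43), while TOP2A at 122 FPKM and PCNA at 277 FPKM with PBS had differences of -0.11 and 0.05. Of 22 p53 targets 2 were higher, SESN2 and the pro-apoptotic BBC3 (0.53), and CDKN1A was not called (-0.19). In the list of leukocyte markers CD68 was called higher (0.54), and in that of ciliated and secretory markers the membrane mucin MUC1, from 2.66 FPKM to 6.39, 5.43 and 5.37 FPKM (0.87 ± 0.11, adjusted p = 0.00799). In bulk libraries such as these, fewer cells of a type and less RNA per cell cannot be told apart.

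**Figure D5:**
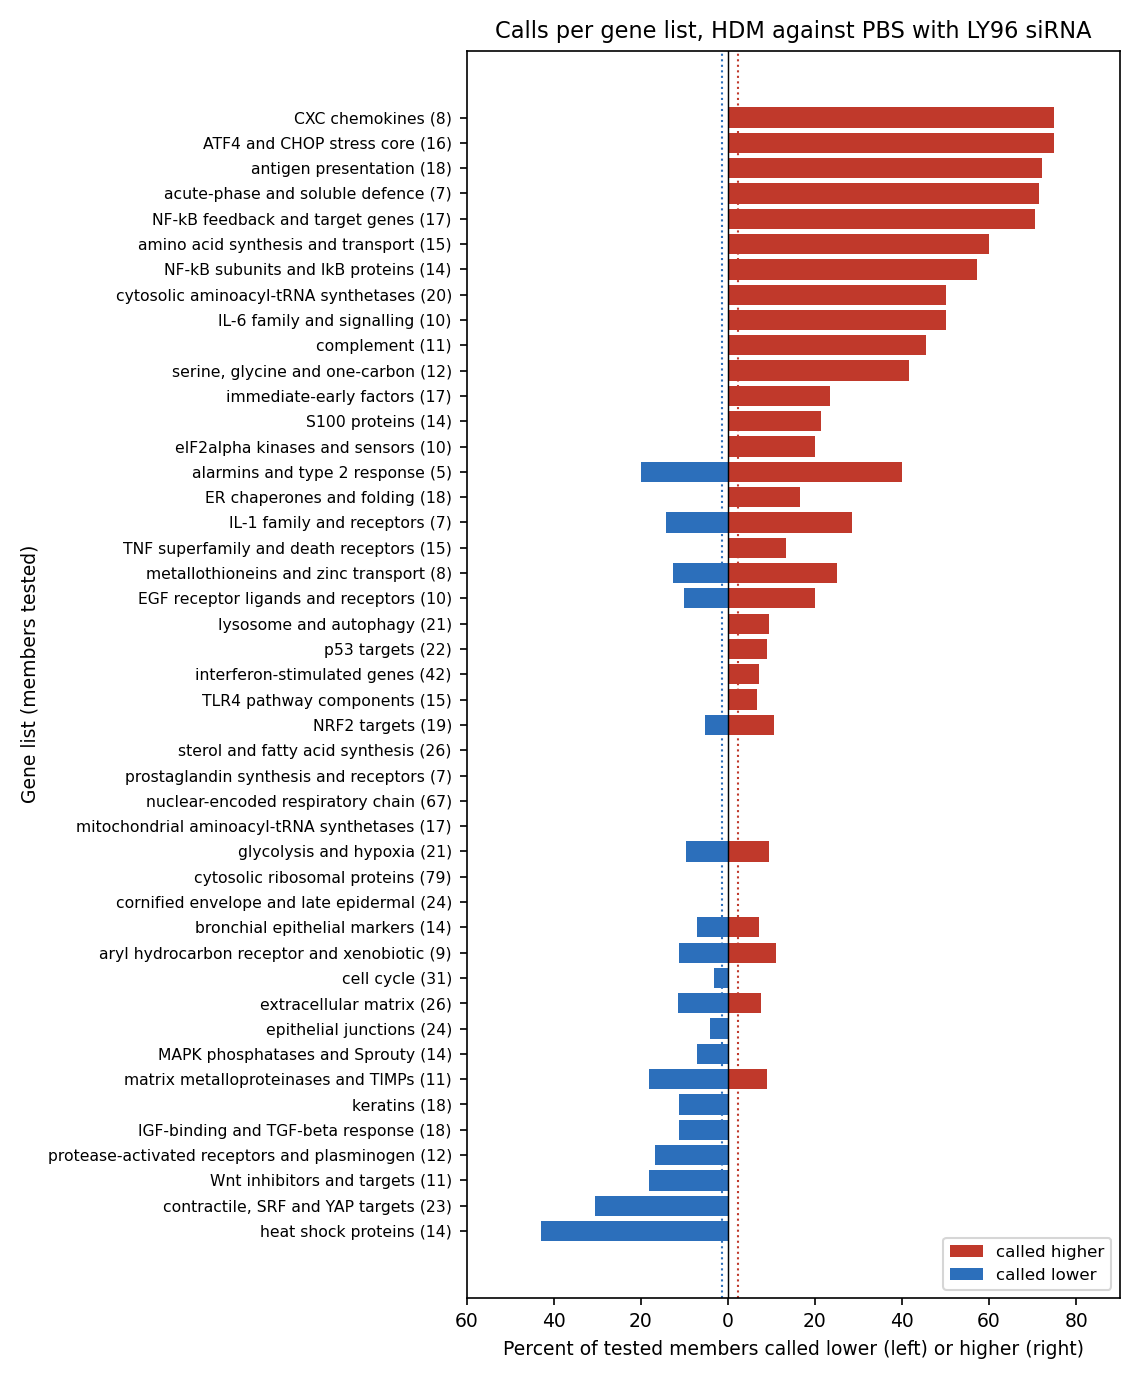
Share of tested members called higher (red, to the right) and lower (blue, to the left) in each gene list with at least 5 tested members, HDM against PBS with LY96 siRNA; the dotted lines mark the shares over all genes, 2.29% higher and 1.29% lower. The CXC chemokine and ATF4 lists reach the highest shares of rises and the heat shock and contractile lists the highest shares of falls.

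A few of the largest single differences belong to genes that share sequence with others, and their values depend on how reads were divided. H3F3A, a gene for histone H3.3, was listed at 0.449 FPKM with PBS and at 116, 117 and 116 FPKM with HDM, while its pseudogene H3F3AP4 went from 404 FPKM to 239, 258 and 253 FPKM. The sum of both was 405 FPKM with PBS and 355, 374 and 369 FPKM with HDM, a ratio of 0.905. NOMO3 rose from 3.27 FPKM to a mean of 18.3 FPKM, but NOMO1, NOMO2 and NOMO3 together were at 76.7 FPKM with PBS and 81.8, 81.0 and 83.8 FPKM with HDM. TMEM110 was listed at 6.02 FPKM with PBS and at 0 with HDM, beside an opposite step of the overlapping read-through gene TMEM110-MUSTN1 from 3.30 FPKM to a mean of 6.35 FPKM, and their sum had a ratio of 0.681. The sum of the galectin-7 genes LGALS7 and LGALS7B had a ratio of 0.657, and complement C4, as C4A, C4B and C4B_2, went from 16.9 FPKM to 30.1, 31.6 and 33.0 FPKM. CXCL1, CXCL2 and CXCL3, SAA1 and SAA2, SERPINB3 and SERPINB4, and the metallothioneins are close paralogs as well, and their separate values carry the same doubt.

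Beside this response, the control siRNA libraries gave 188 genes higher and 102 lower with HDM, 1.49% and 0.811% of the same 12580 genes and 2.31% in all. The 2 comparisons share no library. Of the 288 genes higher with LY96 siRNA, 266 had a difference above 0 with control siRNA and 122 were also called higher there, which is 42.4% of the LY96 siRNA calls and 64.9% of the control calls. Of the 162 lower genes, 157 had a difference below 0 with control siRNA and 56 were also called lower, 34.6% and 54.9% of the 2 sets. No gene was called in opposite directions. A gene called with 1 siRNA and not with the other is not thereby shown to differ, and the count with control siRNA fell to between 141 and 221 when 1 HDM library was left out.

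Many of the inflammatory genes were called higher with control siRNA too, among them the 7 given here. Log2 differences with LY96 and control siRNA were 4.29 and 3.37 for CXCL1, 3.62 and 2.42 for CXCL8, 2.77 and 2.56 for CCL2, 2.70 and 2.28 for SAA1, 2.201 and 2.12 for C3, 1.45 and 1.24 for NFKBIA and 2.36 and 2.50 for IL32. The CXC chemokine list had 6 members called with LY96 siRNA and 7 with control siRNA. Counts of called stress genes with LY96 and with control siRNA were 12 and 3 genes of the ATF4 list, 5 and 1 serine and one-carbon genes, 9 and 1 amino acid genes and 10 and 1 cytosolic synthetases. Heat shock proteins were called lower in 6 and 1. Such counts are no test of the difference between siRNAs.

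A direct test of the difference between the responses, over all 8 libraries and the 12604 genes that averaged 1 FPKM or more there, called 7 genes, or 0.0555%, all with the larger rise after LY96 siRNA. Of these, 5 belong to the stress and amino acid lists. For DDIT3 the control siRNA libraries were at 8.51 FPKM with PBS and 8.74, 9.43 and 9.91 FPKM with HDM, and the difference of responses was 1.39 ± 0.15 SE (adjusted p = 0.0430). STC2 differed by 1.21, MTHFD2 by 1.01 and ATF4 by 0.80, each at an adjusted p of 0.0430, and SLC7A11 by 1.76 (adjusted p = 0.0384). The other two were PTX3 (1.96, adjusted p = 0.0467) and SOD2 (0.61, adjusted p = 0.0430). PTX3 and SLC7A11, with means below 5 FPKM, are named for being called and not by size. Limma called none with the larger response after control siRNA, although 433 genes lay that way and 523 the other at an unadjusted p below 0.05. CHAC1, PSAT1 and ASNS had differences of 1.83, 1.76 and 1.86 between responses but did not pass (adjusted p = 0.115, 0.0779 and 0.117), and CXCL1 and CXCL8 had 0.92 and 1.19 (0.516 and 0.0889). Leaving out 1 HDM library gave between 0 and 33 called genes, 0 without control siRNA HDM replicate 1 and 33 without LY96 siRNA HDM replicate 2, and the test rests on 1 PBS library for each siRNA.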

How the data were processed

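Per the submitters' processing notes, reads of the 8 libraries were placed on hg38 with HISAT2 2.2.0. Each deposited table lists 26485 genes with 1 value per gene, whose unit neither the labels nor the headers name. The deposited values were read as FPKM because they are not whole, their totals differ between libraries, and ratios of low values between libraries fall on no fixed steps. The program that made them, with its annotation, was not given in the sources used here. An exact 0 can be a failed estimate.

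From these values, log2(FPKM + 1) was fitted for genes averaging 1 FPKM or more with limma 3.58.1 in R 4.3.3, with mean-variance trend and robust moderation. The 3 HDM libraries were set against 1 PBS library, with 2 residual degrees of freedom per gene before moderation (median total 7.15). Tests were two-sided, with Benjamini-Hochberg adjustment over all tested genes and a threshold of 0.05. The fit was tested on simulated data in which the PBS library had the spread of the HDM triplicate. That assumption itself was therefore not tested. The difference of responses used 4 group means over 8 libraries. Alternatives were other pseudocounts (0.1 and 0.25), filters, scalings and moderation, a pooled fit, and each HDM library left out; leaving out control siRNA HDM libraries from the control response, and the counts per list, were added after seeing the data.

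The members and lists (50 lists, 973 symbols, of which 829 were tested) were chosen with earlier results of these data known. Named genes were the 15 largest rises and falls among called genes averaging 5 FPKM or more with all HDM libraries on the same side of PBS, up to 6 members of each list (called ones first by size, then by level), a fixed set of LY96, TLR4, NF-kB, cytokine and stress genes, and the 5 largest differences of responses in each direction. Other genes named, such as CXCL14, CXCL16, TRIB3, ATF3 and the members of copied sets, were chosen after their values were seen. Gene positions are from GENCODE 29 (GRCh38), promoters from RefSeq (GRCh38.p14), which matched 732 of 972 list genes. Results for 1 gene are not reported here.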

Additional observations from a re-analysis of the deposited data

Results flagged for a closer look

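The following 7 genes were singled out because their response to HDM differed between the siRNAs in the test of the difference itself, over all 8 libraries (limma, Benjamini-Hochberg adjusted p below 0.05). Each difference is the log2 response after LY96 siRNA less the log2 response after control siRNA: 1.96 for the pentraxin PTX3, 1.76 for the cystine importer SLC7A11, 1.39 for DDIT3, 1.21 for STC2, 1.01 for MTHFD2, 0.80 for ATF4 and 0.61 for SOD2. The response with control siRNA alone was 0.73 for PTX3, 0.17 for SLC7A11, 0.12 for DDIT3, 0.53 for STC2, 0.18 for MTHFD2, 0.17 for ATF4 and 1.34 for SOD2. The 7 adjusted p-values lie between 0.0384 and 0.0467.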

How the results depend on the processing

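The counts of called genes depended on the fit. Without a filter on low values the response to HDM with LY96 siRNA had 35 genes higher and 5 lower, and with moderation that uses neither trend nor robust weights 131 and 29. A fit of 4 group means over 8 libraries gave 374 higher and 250 lower. Leaving out 1 HDM library gave 258 to 355 higher and 152 to 203 lower. Of the 450 called genes, 444 and 434 kept the call with pseudocounts of 0.1 and 0.25, 365 with a filter of 5 FPKM, 441 and 426 after median-ratio and quantile scaling, 426 in the pooled fit, 156 without trend and robust weights, 37 without a filter, and 410, 361 and 349 without HDM replicate 1, 2 and 3. Every one of the 450 that was still tested kept its direction in each of these 11 settings. Counts per list moved as well. Without trend and robust weights the called rises were 7 rather than 12 in the ATF4 list, 2 rather than 9 amino acid genes, 5 rather than 10 cytosolic synthetases, 3 rather than 5 serine and one-carbon genes and 2 rather than 13 antigen presentation genes, and the falls 1 rather than 7 contractile genes and 0 rather than 6 heat shock proteins. Without a filter the rises were 3 rather than 6 CXC chemokines, 2 rather than 5 complement genes, 3 rather than 5 acute-phase genes, 5 rather than 8 NF-kB subunit and IkB genes, 5 rather than 12 NF-kB feedback and target genes and 1 rather than 12 in the ATF4 list, and 0 in the other lists just named, falls included. In the pooled fit 6 rather than 3 chaperones of the endoplasmic reticulum were higher, and 5 rather than 2 keratins, 5 rather than 1 junction genes, 5 rather than 3 matrix genes and 5 rather than 1 bronchial epithelial markers were lower. With a filter of 5 FPKM, which removes genes, 3 rather than 6 CXC chemokines and 3 rather than 5 genes of the IL-6 list were higher. The test of the difference between siRNAs gave 20 genes without a filter, 15 with a filter of 5 FPKM, 14 after quantile scaling, 0 without trend and robust weights, and 0 to 33 with 1 HDM library left out, and its 7 genes kept their direction wherever they were tested. Of these 7, the genes still called were 6 with either pseudocount, 7 after either scaling, 5 with a filter of 5 FPKM, 1 without a filter, 0 without trend and robust weights, 1, 7 and 3 without LY96 siRNA HDM replicate 1, 2 and 3, and 0, 1 and 1 without control siRNA HDM replicate 1, 2 and 3. The labels do not say that same-numbered samples share a batch or day. Deviations of same-numbered HDM libraries correlated at 0.034, -0.019 and -0.022 across genes, which cannot show whether the samples were paired. With the replicate number as a block, the test called 3 genes, 2 of them among the 7. The count with control siRNA was 141 to 221 with 1 of its HDM libraries left out. With 1 PBS library per siRNA and unknown read depth, the precision of low values cannot be given.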
